A study of Rattus norvegicus with 9 samples.

Results

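The proteasome genes described here are the constitutive subunits, activators and inhibitor whose symbols in the deposited table run from Psma to Psmf with a number, without the interferon-induced catalytic subunits Psmb8, Psmb9 and Psmb10. The rule used symbols alone and found 40 of the 20442 genes in the table. They comprise 14 genes of the 20S core particle, 17 of the 19S cap, 3 chaperones that help assemble the cap, 5 activators and inhibitors, and the thymus-specific beta subunit Psmb11. RNA was sequenced from rat bone marrow-derived dendritic cells, wild type, grown in 10% serum with GM-CSF and IL-4 at 20 ng/mL each. Cultures labelled EVs, called LPS+EVs here (n = 3), received lipopolysaccharide (LPS, a bacterial endotoxin) and extracellular vesicles (EVs) from ASCs. Cultures labelled LPS (n = 3) received the endotoxin, and Control cultures (n = 3) received neither. The protocol names LPS at 1 µg/mL, a treatment of 24 h and 50 ng/mL of an agent it leaves unnamed. The EV dose is not known here, and in comparisons with Control the unnamed agent and LPS cannot be told apart. Replicates are labelled as biological with no word on separate animals, so p-values measure the spread between these cultures.

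The proteasome degrades proteins tagged with ubiquitin. Its barrel, the 20S core, has outer rings of alpha subunits that gate the entrance and inner rings of beta subunits, of which Psmb5, Psmb6 and Psmb7 hold the catalytic sites. The 19S cap binds ubiquitin chains, removes them and threads the unfolded protein into the barrel with a ring of ATPases. In antigen-presenting cells the peptides released by the proteasome feed MHC class I, and Psmb8, Psmb9 and Psmb10 can replace the constitutive catalytic subunits in newly built particles.

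The 9 libraries held 32148519 to 39407116 reads recovered from the deposited FPKM (fragments scaled to gene length and to the assigned reads), a 1.23-fold range. The library numbered 2 stood apart within each group on the second principal component. It held the highest value of 26 of 39 proteasome genes among LPS+EVs cultures, of 27 among LPS cultures and of 20 among Control cultures, against 26.7%, 31.5% and 35.5% of all tested genes in the same groups. Dendritic markers were present except Flt3, which reached at most 0.108 FPKM. Reads of 18 of the 40 genes may be shared with named copies, mostly pseudogenes, of which RefSeq lists 49. The 18 genes are Psma2, Psma3, Psma5, Psma6, Psma7, Psmb3, Psmb4, Psmb6, Psmb7, Psmc4, Psmc6, Psmd1, Psmd8, Psmd12, Psmd14, Psme1, Psme2 and Psme3. Only 3 of the 49 copies had a row in the deposited table, none above 4.864 FPKM. They are copies of Psmb3, Psmb6 and Psme1. Reads shared with the copies that have no row were not measured, so the levels of the 18 genes are uncertain.

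Of the 40 genes, 39 reached at least 1 FPKM in at least 3 libraries and were tested. Psmb11, the beta subunit of thymic epithelium, was listed at 0 in 7 of 9 libraries. It stood at 0.0528 FPKM in LPS+EVs culture 2 and at 0.0487 FPKM in Control culture 1, each recovered as 1 read. The recovery takes the smallest whole numbers that fit, so more reads are possible. Psma8, the testis alpha subunit, had no row under that symbol and was not analysed here. The 39 tested genes summed to 3508 to 4182 FPKM in LPS+EVs cultures, 3371 to 4109 FPKM in LPS cultures and 3790 to 4121 FPKM in Control cultures. This was 0.694% to 0.825%, 0.71% to 0.801% and 0.779% to 0.847% of all FPKM in those groups, and the ranges overlapped. In bulk RNA, fewer cells of a type and less RNA per cell cannot be told apart.

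**Figure D1:**
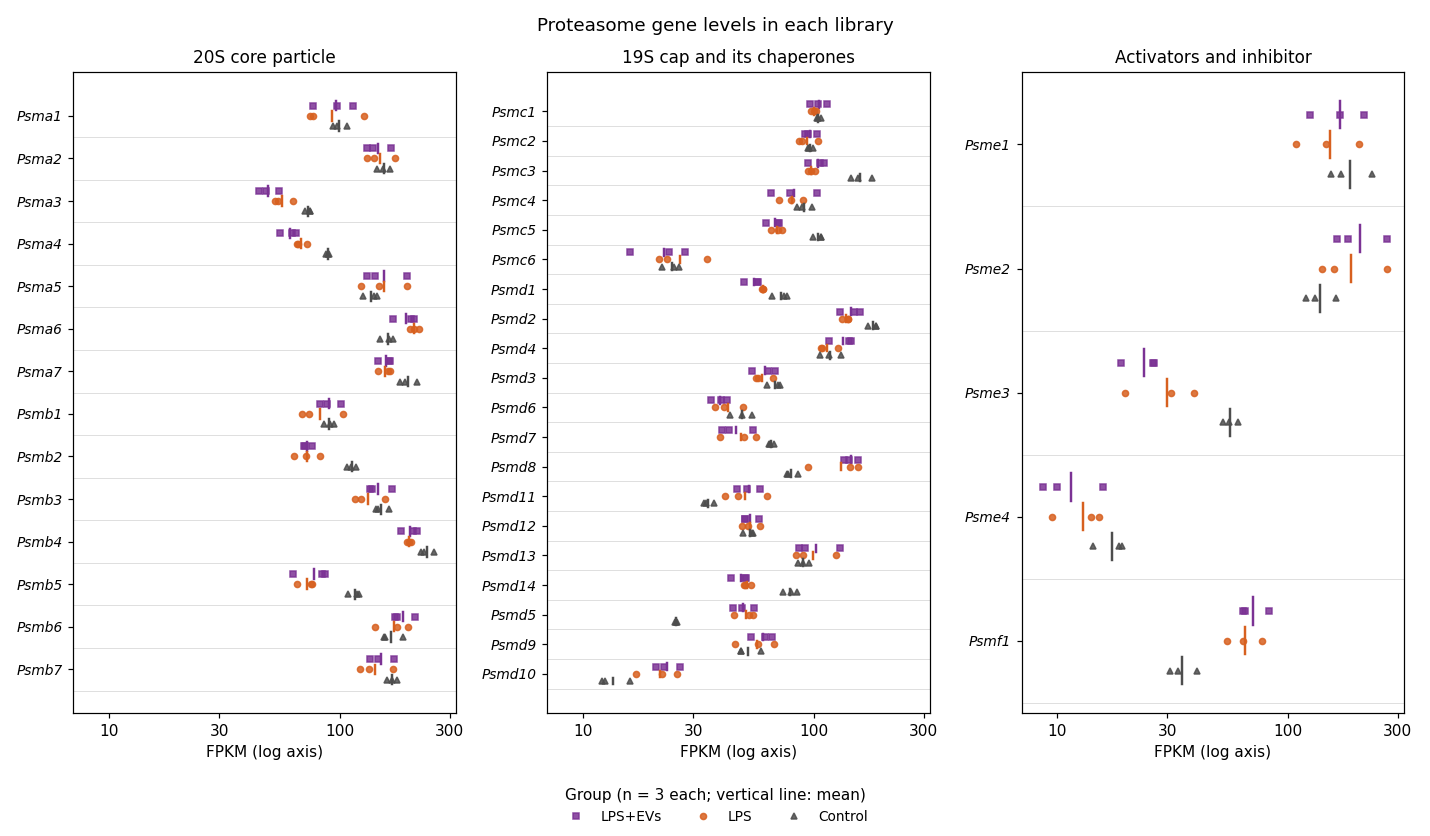
FPKM of each tested proteasome gene (log axis) in each of the 3 libraries of LPS+EVs, LPS and Control, with a vertical line at the group mean, for the core, the cap with its chaperones, and the activators with the inhibitor. Psma3 was the lowest core gene in all 9 libraries, and the 3 Control values of Psmd5, at 24.9 to 25.6 FPKM, lie left of every treated value.

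Transcripts of the constitutive proteasome did not all move one way after LPS. In LPS against Control, 6 of 39 genes rose and 10 fell (limma-trend on log2(FPKM + 1), adjusted p under 0.05 by Benjamini-Hochberg over 11141 genes). Those that rose were Psma6, Psmd5, Psmd8, Psmd10, Psmd11 and Psmf1. Those that fell were Psma3, Psma4, Psma7, Psmb2, Psmb5, Psmc3, Psmc5, Psmd2, Psmd14 and Psme3. The share called, 16 of 39 genes, was near the 41% called among all tested genes, of which 12.3% were higher and 28.7% lower. Leaving out 1 culture at a time gave 2 to 6 genes higher and 6 to 10 lower, with 2 higher without LPS culture 1, 3 higher without LPS culture 2 or Control culture 2 or 3, and 6 lower without Control culture 1. For the fits without 1 culture, the counts over all tested genes are not given here. The cultures numbered 1 and 3 alone gave 2 higher and 10 lower (1766 and 3211 of all 11141 tested genes), but kept only 9 of the 16 calls. Their falls included Psma1, Psmb7 and Psmd6, which were not called with all cultures.

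The scaling of the libraries bears on these falls. The median change of all tested genes in LPS against Control was -0.19 on the log2 scale, and that of the 39 proteasome genes was -0.18, with 21 of them above the median of all genes. When libraries were rescaled by the median of ratios, so that the median gene had no change, the same 6 genes were called higher and 3 were called lower, Psmb5, Psmc3 and Psme3. Among all tested genes that scaling gave 17% higher and 20.9% lower. The 6 rises and these 3 falls thus held under both scalings, whereas the falls of Psma3, Psma4, Psma7, Psmb2, Psmc5, Psmd2 and Psmd14 were not called after rescaling. With the rescaling and the replicate number as a block together, Psmb2, Psmc5 and Psmd14 were called lower again, and 7 genes were higher and 6 lower (24.1% and 26.1% of all tested genes). By class, the median change was -0.22 over the 14 core genes, -0.18 over the 17 cap genes and -0.31 over the 5 activators and inhibitor, and -0.01, 0.03 and -0.09 under the median-of-ratios scaling. The differences between classes were not tested.

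With EVs present, the same comparison with Control gave 5 genes higher and 12 lower of 39, where all tested genes gave 44.3% called, 13.5% higher and 30.8% lower. The 5 were Psmd5, Psmd8, Psmd10, Psmd11 and Psmf1, and the 12 were the falling genes named above for LPS together with Psmd1 and Psmd7. The median gene changed by -0.19 and the median proteasome gene by -0.14, with -0.13 for the core, -0.14 for the cap and -0.15 for the activators and inhibitor. Median-of-ratios scaling gave 6 higher, with Psma6 added, and 3 lower, Psmc5, Psmd14 and Psme3, against 18.6% and 22.5% of all tested genes. The calls of Psma7, Psmd1, Psmd2, Psmd7 and Psmd11 in this comparison were each lost without at least 1 culture. The 2 comparisons share the Control cultures, so their likeness is no separate evidence.

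Cultures with the same replicate number deviated together, and the replicate number was therefore also fitted as a block. In LPS against Control the block gave 7 genes higher and 13 lower (17.2% and 35.5% of all tested genes), and the 4 added genes were Psme2, which was higher, and Psme1, Psme4 and Psmd7, which were lower. In LPS+EVs against Control it gave 6 higher and 13 lower (17.8% and 37.4% of all tested genes), adding Psme2 as higher and Psme4 as lower. Under the deposited scaling, no gene called without the block lost its call with it. Block and rescaling together gave 10 higher and 8 lower in LPS+EVs against Control (25.2% and 27.4% of all tested genes). The genes higher there beyond the 5 were Psma6, Psmb6, Psmd4, Psmd9 and Psme2, and those lower were Psma3, Psma4, Psmb2, Psmb5, Psmc3, Psmc5, Psmd14 and Psme3.

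Markers of other cells and of division moved with the same contrast. Their counts after LPS are to be read against 12.3% higher and 28.7% lower among all tested genes. With the replicate block these shares were 17.2% and 35.5%. All 6 markers of dividing cells fell after LPS, and their sum was 4.65 to 6.54 FPKM in LPS+EVs cultures, 4.15 to 5.72 FPKM in LPS cultures and 233 to 288 FPKM in Control cultures. Of 8 macrophage markers 1 rose and 6 fell (sums of 886 to 984, 752 to 870 and 1057 to 1248 FPKM in the same groups), and of 4 tested neutrophil markers 2 fell, or 4 with the replicate block (4.07 to 17.3, 1.8 to 6.67 and 30.9 to 256 FPKM). Of 2 tested erythroid markers 1 rose and 1 fell (3.67 to 8.79, 4.88 to 9.58 and 54 to 437 FPKM), and of 7 tested dendritic markers 1 rose and 1 fell, or 1 and 4 with the block, which added RT1-Ba, RT1-Da and Cd74 (1587 to 7515, 1173 to 7236 and 1885 to 8216 FPKM). None of 6 stromal markers was called without the block and 1, Col3a1, was lower with it (123 to 806, 84.7 to 674 and 142 to 450 FPKM), and T, NK and B cell markers were untested, with sums of at most 2.73 FPKM. No marker with a row in the table was at 0 in all 9 libraries. The part of dividing cells and of the other cell types in the changes of the proteasome genes was not tested.

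**Figure D2:**
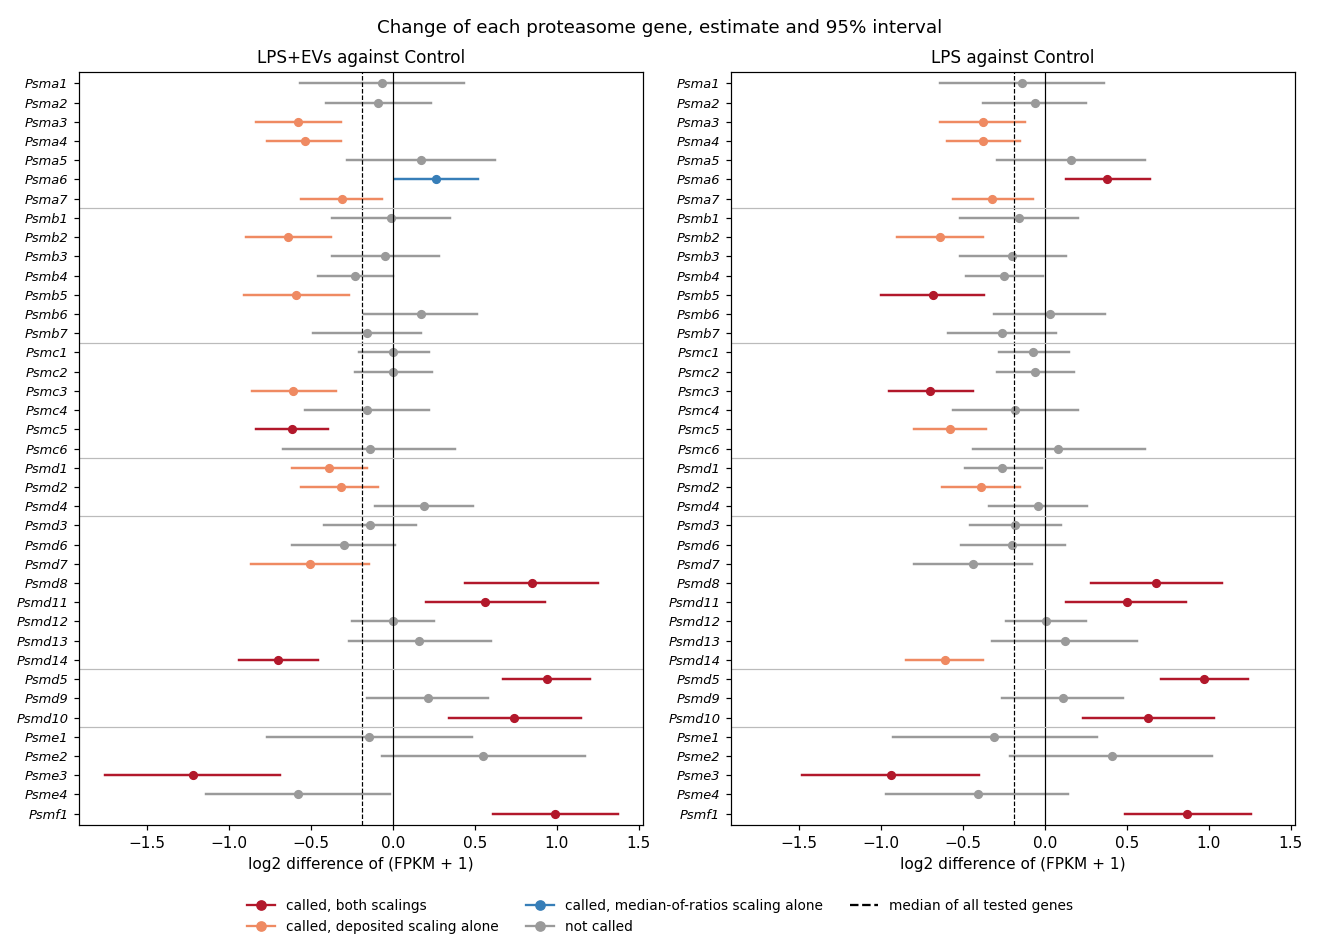
Log2 difference of (FPKM + 1) with its 95% interval for each of the 39 genes, LPS+EVs against Control on the left and LPS against Control on the right, coloured by whether the call, without the replicate block, held under the deposited scaling, the median-of-ratios scaling or both. The dashed line marks the median of all tested genes at -0.19, and Psmd5 and Psmf1 lie to the right and Psme3 to the left of both lines in both panels.

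The stretch of 120 bases that ends 1 base before the annotated transcript start is printed for the genes with the largest changes, 4 that fell and 3 that rose after LPS, because proteasome genes are known to share promoter elements. Sequences are those of RefSeq on build GRCr8, in which 35 of the 40 genes matched, while the deposited reads were placed on mRatBN7.2. They were read as Psmb2 from chr5:144254938-144255057 on the plus strand, Psmb5 from chr15:32047380-32047499 on the minus strand, Psmc3 from chr3:97487523-97487642 on the plus strand, Psme3 from chr10:86757813-86757932 on the plus strand, Psmd5 from chr3:38548491-38548610 on the minus strand, Psmd8 from chr1:93608690-93608809 on the minus strand and Psmf1 from chr3:160720916-160721035 on the minus strand. Capitals mark TGACNNNGC, the core of the antioxidant response element to which Nfe2l1 binds, and CCAAT, the box to which NF-Y binds, on either strand.
Psmb2: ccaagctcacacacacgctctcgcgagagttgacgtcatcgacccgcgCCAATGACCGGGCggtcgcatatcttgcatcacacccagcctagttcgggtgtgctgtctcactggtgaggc
Psmb5: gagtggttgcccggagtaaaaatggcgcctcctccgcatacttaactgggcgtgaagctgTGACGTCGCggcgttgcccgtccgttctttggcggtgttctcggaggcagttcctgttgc
Psmc3: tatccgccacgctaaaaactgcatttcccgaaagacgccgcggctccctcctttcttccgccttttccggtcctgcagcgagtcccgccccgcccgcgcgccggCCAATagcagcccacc
Psme3: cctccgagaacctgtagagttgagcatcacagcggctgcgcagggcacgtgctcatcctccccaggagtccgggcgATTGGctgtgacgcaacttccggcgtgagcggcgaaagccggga
Psmd5: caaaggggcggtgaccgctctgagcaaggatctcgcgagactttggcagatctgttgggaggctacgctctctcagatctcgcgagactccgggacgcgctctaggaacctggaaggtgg
Psmd8: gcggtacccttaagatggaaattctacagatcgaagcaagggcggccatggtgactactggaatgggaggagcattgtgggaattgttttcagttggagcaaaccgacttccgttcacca
Psmf1: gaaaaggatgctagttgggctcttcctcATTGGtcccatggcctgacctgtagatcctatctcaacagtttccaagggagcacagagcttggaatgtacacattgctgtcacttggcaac
Psmb2 held both elements, which overlap by their shared T at base -68 from the transcript start. Psmb5 held the antioxidant element, at -60 to -52. Psmc3, Psme3 and Psmf1 held a CCAAT box, at -16 to -12, at -44 to -40 and at -92 to -88. The printed stretches of Psmd5 and Psmd8 held neither.

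Over the whole window of 250 bases before to 50 bases after the start, TGACNNNGC stood in 8 of 35 promoters of proteasome genes (22.9%), against 14.9% of 9125 promoters of tested genes and 12.2% of the 27457 promoters in the RefSeq set. These were Psma3, Psmb2, Psmb5, Psmb6, Psmd1, Psmd3, Psmd9 and Psme4. CCAAT stood in 18 (51.4%), against 38.4% of the promoters of tested genes and 37.7% of all. The GC box GGGCGG stood in 25 (71.4%), against 62.4% and 34.9%, and on the Psmb2 promoter it overlapped the antioxidant element. The interferon-type core GAAANNGAA stood in 6 (17.1%), against 7.68% and 9.5%, and the NF-kB-like GGGANTTCC stood in Psmb2 alone (2.86%), against 2.48% and 1.73%. A match describes these letters and not a bound factor, and genes that hold the antioxidant element included Psmb5, which fell, and Psmb6, which was not called.

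Among the 7 alpha subunits of the core, which form the outer rings, 1 rose and 3 fell in LPS against Control, with a median change of -0.14. Psma3 measured 54.4, 47.7 and 44.5 FPKM in LPS+EVs cultures, 53.8, 52.2 and 62.5 FPKM in LPS cultures and 74.5, 71 and 74 FPKM in Control cultures. Every Control culture was higher than every treated one, and LPS against Control gave a log2 change of -0.38 (SE 0.11, adjusted p 0.0271). Psma4 measured 62.1, 64.7 and 55.1 FPKM in LPS+EVs cultures, 65.4, 72.3 and 66.2 FPKM in LPS cultures and 88.6, 90.2 and 87 FPKM in Control cultures. Again no treated culture reached Control, and the log2 change after LPS was -0.38 (SE 0.10, adjusted p 0.0157). Under the median-of-ratios scaling both changes were -0.17 (adjusted p 0.33 and 0.44, and 0.288 and 0.251 with the block). Leaving out any of the 6 cultures but LPS culture 3 ended the call of Psma3 (adjusted p up to 0.0835), and leaving out LPS culture 1 ended that of Psma4 (adjusted p 0.0557).

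Psma6 was the alpha gene that rose. It measured 209, 203 and 170 FPKM in LPS+EVs cultures, 209, 221 and 201 FPKM in LPS cultures and 171, 150 and 163 FPKM in Control cultures. The LPS cultures did not overlap Control and the log2 change was 0.38 (SE 0.11, adjusted p 0.0254), which is 0.57 above the median of all genes. The call was lost without Control culture 2 or 3 or LPS culture 1 or 2 (adjusted p 0.0601 to 0.0808). One LPS+EVs culture lay within the Control range, and LPS+EVs against Control gave 0.26 (adjusted p 0.0881, and 0.0425 under median-of-ratios scaling). Psma7 changed by -0.32 after LPS (adjusted p 0.0419), a call lost when any 1 of the 6 cultures was left out (adjusted p 0.0548 to 0.127). Psma1, Psma2 and Psma5 were not called in either comparison, with log2 changes after LPS of -0.14, -0.06 and 0.16. With cultures numbered 1 and 3 alone, Psma1 was called lower after LPS (adjusted p 0.0481). Psma6 has 5 named copies in RefSeq.

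Of the 7 beta subunits, which form the inner rings, Psmb2 and Psmb5 fell and none rose, and the median change after LPS was -0.25. Psmb5 carries the chymotrypsin-like site that proteasome inhibitors such as bortezomib block. It measured 62.8, 83.4 and 86.1 FPKM in LPS+EVs cultures, 75.7, 65.2 and 75.2 FPKM in LPS cultures and 119, 121 and 109 FPKM in Control cultures. All treated cultures were lower than Control, with a log2 change of -0.68 after LPS (SE 0.14, adjusted p 0.00521) and -0.59 after LPS with EVs (adjusted p 0.00924). The change after LPS stayed called under the median-of-ratios scaling (-0.47, adjusted p 0.0384), whereas that after LPS with EVs did not (-0.36, adjusted p 0.0844), although with that scaling and the replicate block together it did (adjusted p 0.0456).

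The other catalytic genes were not called in LPS against Control. Psmb6, which carries the caspase-like site, measured 173, 212 and 178 FPKM in LPS+EVs cultures, 177, 197 and 142 FPKM in LPS cultures and 158, 188 and 156 FPKM in Control cultures, and the groups overlapped (log2 change after LPS 0.03, 95% interval -0.31 to 0.37). In LPS+EVs against Control Psmb6 was called higher with block and rescaling together (adjusted p 0.0233) and not otherwise (adjusted p 0.403 under the deposited scaling). Psmb7, which carries the trypsin-like site, measured 136, 172 and 146 FPKM in LPS+EVs cultures, 134, 170 and 122 FPKM in LPS cultures and 168, 177 and 161 FPKM in Control cultures (log2 change after LPS -0.26, 95% interval -0.59 to 0.07). Without LPS culture 2 Psmb7 was called lower after LPS (adjusted p 0.0396), and so it was with cultures numbered 1 and 3 alone (adjusted p 0.0392). The differences between the changes of the catalytic genes were not tested.

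Psmb2, a structural beta subunit, measured 70.6, 76 and 70.1 FPKM in LPS+EVs cultures, 71.2, 82.4 and 63.5 FPKM in LPS cultures and 112, 118 and 108 FPKM in Control cultures. The treated cultures lay well below Control, with a log2 change of -0.64 after LPS (SE 0.11, adjusted p 0.0028; -0.43 and adjusted p 0.0929 under median-of-ratios scaling, 0.017 with that scaling and the block). The structural genes Psmb1, Psmb3 and Psmb4 changed by -0.16, -0.20 and -0.25 and were not called. Psmb3 has 10 named copies in RefSeq. Within a library the 14 core genes spanned a 3.03- to 4.66-fold range of FPKM, with Psma6 or Psmb4 highest.

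The catalytic genes can be set against the subunits that replace them. Psmb8, which replaces Psmb5, measured 216, 243 and 241 FPKM in LPS+EVs cultures, 205, 229 and 222 FPKM in LPS cultures and 195, 195 and 208 FPKM in Control cultures, and was not called (log2 change after LPS 0.13, adjusted p 0.301; 0.0344 with block and rescaling together). In LPS+EVs against Control it changed by 0.23 (adjusted p 0.0896, and 0.038 under median-of-ratios scaling). The ratio of Psmb8 to Psmb5 was 2.8 to 3.45 in LPS+EVs cultures, 2.71 to 3.52 in LPS cultures and 1.62 to 1.91 in Control cultures. The treated ranges lay above Control, with Psmb5 called lower and Psmb8 not called under the deposited scaling. This ratio, and the ratio of Psme2 to Psme1 given later, were chosen after the values were seen. The ratios of Psmb9 to Psmb6 and of Psmb10 to Psmb7 were likewise not planned.

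Psmb10, which replaces Psmb7, moved the other way. It measured 45.1, 73.9 and 60.7 FPKM in LPS+EVs cultures, 48.7, 58.5 and 55.6 FPKM in LPS cultures and 83.4, 126 and 88 FPKM in Control cultures (log2 change after LPS -0.84, SE 0.21, adjusted p 0.0136; adjusted p 0.0888 under median-of-ratios scaling, and 0.00213 with that scaling and the block). Its ratio to Psmb7 was 0.332 to 0.431 in LPS+EVs cultures, 0.345 to 0.455 in LPS cultures and 0.498 to 0.712 in Control cultures, with no overlap between treated cultures and Control. Psmb9, which replaces Psmb6, measured 80.8, 123 and 122 FPKM in LPS+EVs cultures, 84.9, 113 and 111 FPKM in LPS cultures and 59.6, 99.5 and 77.3 FPKM in Control cultures. Its groups overlapped (log2 change after LPS 0.40, adjusted p 0.195), and it was called higher with the replicate block (adjusted p 0.0172). Summed over all 3, the replacing genes stood to the constitutive ones at 0.921 to 1.03 in LPS+EVs cultures, 0.878 to 1.15 in LPS cultures and 0.761 to 0.877 in Control cultures.

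**Figure D3:**
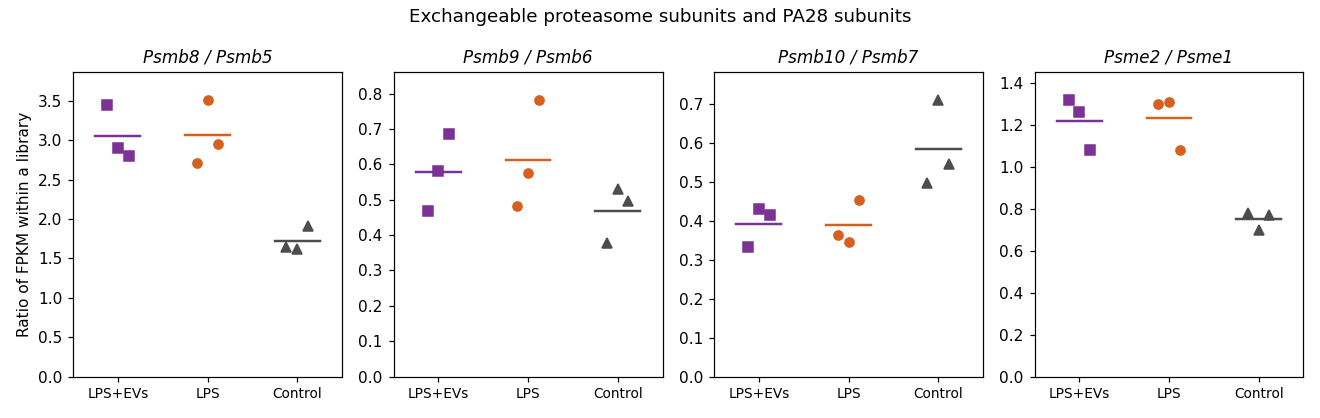
Ratio of FPKM within each library (axes from 0) for each replacing catalytic subunit over its constitutive counterpart and for Psme2 over Psme1, with 3 libraries in each of LPS+EVs, LPS and Control and a line at the mean. Treated libraries lie above Control for Psmb8 over Psmb5 and for Psme2 over Psme1, below it for Psmb10 over Psmb7, and overlap it for Psmb9 over Psmb6.

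In the 19S cap, which recognises ubiquitin and unfolds the substrate, 2 of 17 subunit genes rose and 4 fell in LPS against Control. Of the 6 ATPases of its base, Psmc3 and Psmc5 fell and none rose. Psmc3 measured 94.5, 106 and 111 FPKM in LPS+EVs cultures, 97.7, 94 and 101 FPKM in LPS cultures and 155, 178 and 145 FPKM in Control cultures. The lowest Control value lay far above the highest treated one, and the log2 change after LPS was -0.70 (SE 0.11, adjusted p 0.0017), or -0.51 relative to the median of all genes. Psmc5 measured 62.2, 70.6 and 69.9 FPKM in LPS+EVs cultures, 65.3, 70.3 and 72.5 FPKM in LPS cultures and 107, 107 and 99 FPKM in Control cultures (log2 change after LPS -0.58, SE 0.10, adjusted p 0.00209). Under the median-of-ratios scaling Psmc5 changed by -0.37 (adjusted p 0.0667, and 0.019 with the block) after LPS.

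The remaining ATPases were not called. Psmc1 measured 96.7 to 114 FPKM over all 9 cultures, and the changes of Psmc1, Psmc2, Psmc4 and Psmc6 after LPS were -0.07, -0.06, -0.18 and 0.08. Psmc6 had the lowest level of the ATPases, at 16 to 34.5 FPKM, although the 6 proteins sit in 1 ring. Of the non-ATPase genes of the base, Psmd2, a scaffold that binds ubiquitin receptors, changed by -0.39 (SE 0.10, adjusted p 0.0171). Psmd2 measured 130, 149 and 158 FPKM in LPS+EVs cultures, 141, 133 and 141 FPKM in LPS cultures and 186, 186 and 172 FPKM in Control cultures, without overlap. Its call was lost without Control culture 1 (adjusted p 0.0596) or Control culture 2 (adjusted p 0.0503) and under the median-of-ratios scaling (adjusted p 0.319). Psmd1, the other scaffold, was called in LPS+EVs against Control (-0.39, adjusted p 0.0153; 0.06 without Control culture 1 and 0.0553 without Control culture 3) and changed by -0.26 after LPS (adjusted p 0.0756), and the ubiquitin receptor Psmd4 was called in neither, except higher in LPS+EVs against Control with block and rescaling together (adjusted p 0.0164).

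The lid, which holds the deubiquitinase, split in both directions. Psmd14, the subunit that cuts ubiquitin off the substrate, measured 50.6, 50.4 and 43.8 FPKM in LPS+EVs cultures, 50.3, 53.5 and 49.8 FPKM in LPS cultures and 84.3, 73.2 and 79.4 FPKM in Control cultures. It was lower in every treated culture, with a log2 change of -0.61 after LPS (SE 0.10, adjusted p 0.00214) and -0.70 after LPS with EVs (adjusted p 0.00111). Under the median-of-ratios scaling the values were -0.40 (adjusted p 0.0666, and 0.0328 with the block) and -0.48 (adjusted p 0.0348).

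Psmd8, a lid subunit placed late in assembly, moved the other way. It measured 142, 156 and 135 FPKM in LPS+EVs cultures, 144, 155 and 94.8 FPKM in LPS cultures and 85.2, 77.3 and 76.9 FPKM in Control cultures. All treated cultures exceeded Control, although LPS culture 3 came close, and the log2 change after LPS was 0.68 (SE 0.18, adjusted p 0.0157), or 0.87 above the median of all genes. This call was lost without Control culture 3 (adjusted p 0.0518) or LPS culture 1 (adjusted p 0.0552). Psmd11, the lid subunit that contacts the core, measured 51.4, 58.5 and 46.6 FPKM in LPS+EVs cultures, 46.8, 62.7 and 41.3 FPKM in LPS cultures and 37.1, 34.1 and 33.3 FPKM in Control cultures (log2 change after LPS 0.50, SE 0.16, adjusted p 0.037). Leaving out any of the 6 cultures but LPS culture 3 ended the call of Psmd11 (adjusted p up to 0.104). Psmd7, the partner of Psmd14, changed by -0.44 after LPS (adjusted p 0.0544, and 0.0275 with the replicate block) and by -0.51 after LPS with EVs (adjusted p 0.0298, lost without any of the 6 cultures but LPS+EVs culture 3). Without LPS culture 3 Psmd7 was also called after LPS (adjusted p 0.0315). With block and median-of-ratios scaling together Psmd7 was called neither after LPS (adjusted p 0.128) nor after LPS with EVs (adjusted p 0.0644). Psmd3, Psmd6, Psmd12 and Psmd13 were not called, with changes after LPS of -0.18, -0.20, 0.01 and 0.12. With cultures numbered 1 and 3 alone, Psmd6 was called lower after LPS (adjusted p 0.0394) and after LPS with EVs (adjusted p 0.0255).

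The chaperones of cap assembly, which leave the finished particle, held the largest rise. Psmd5 measured 54.8, 48.8 and 44.5 FPKM in LPS+EVs cultures, 52.5, 54.5 and 44.9 FPKM in LPS cultures and 25.6, 25.2 and 24.9 FPKM in Control cultures. Every treated culture was far above the narrow Control range, with a log2 change of 0.97 after LPS (SE 0.12, adjusted p 0.000389), or 1.16 above the median of all genes, and 0.94 after LPS with EVs (adjusted p 0.000469). Psmd10, known as gankyrin, measured 22.5, 26.4 and 20.7 FPKM in LPS+EVs cultures, 22, 25.6 and 17 FPKM in LPS cultures and 12.4, 12.1 and 15.9 FPKM in Control cultures. The groups did not overlap (log2 change after LPS 0.63, SE 0.18, adjusted p 0.0209), but the call was lost without any 1 of Control cultures 1 and 2 and LPS cultures 1 and 2 (adjusted p 0.0519 to 0.0724). Psmd9, the third chaperone, was not called (0.11, adjusted p 0.613), and in LPS+EVs against Control it was called higher with block and rescaling together (adjusted p 0.0234).

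The regulators that cap the barrel in place of 19S also moved apart. Psme3, which forms the nuclear activator PA28 gamma, measured 26, 18.8 and 26.3 FPKM in LPS+EVs cultures, 31.1, 19.6 and 39 FPKM in LPS cultures and 60.5, 52.4 and 55.8 FPKM in Control cultures. It was lower in every treated culture, with a log2 change of -0.94 after LPS (SE 0.24, adjusted p 0.0135), the largest fall of the 39 genes, and -1.22 after LPS with EVs (adjusted p 0.00385). Without Control culture 1 the adjusted p after LPS was 0.0501. Psme3 has 4 named copies in RefSeq.

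Psme1 and Psme2 form PA28 alpha-beta, the interferon-induced activator linked to antigen processing. Psme1 measured 125, 213 and 168 FPKM in LPS+EVs cultures, 108, 204 and 146 FPKM in LPS cultures and 154, 232 and 170 FPKM in Control cultures (log2 change after LPS -0.31, adjusted p 0.401). Psme2 measured 164, 268 and 182 FPKM in LPS+EVs cultures, 140, 268 and 158 FPKM in LPS cultures and 120, 162 and 131 FPKM in Control cultures (log2 change after LPS 0.41, adjusted p 0.258). Both varied mainly with the replicate number, being highest in culture 2 of each group, and with the replicate block Psme1 was called lower (adjusted p 0.0398) and Psme2 higher (adjusted p 0.0219) after LPS. With block and median-of-ratios scaling together Psme2 stayed called (adjusted p 0.0104) and Psme1 did not (adjusted p 0.551). The ratio of Psme2 to Psme1 was 1.08 to 1.32 in LPS+EVs cultures, 1.08 to 1.31 in LPS cultures and 0.699 to 0.778 in Control cultures, so that Psme2 exceeded Psme1 in all treated cultures and in no Control culture.

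Psmf1, the inhibitor PI31, measured 65, 82.4 and 63.7 FPKM in LPS+EVs cultures, 63.8, 77.1 and 54.3 FPKM in LPS cultures and 33.5, 40.3 and 30.9 FPKM in Control cultures. It rose without overlap, by 0.87 on the log2 scale after LPS (SE 0.17, adjusted p 0.00405), or 1.06 above the median of all genes, and by 0.99 after LPS with EVs (adjusted p 0.00213). Psme4, the activator PA200, was low, at 15.8, 8.67 and 9.99 FPKM in LPS+EVs cultures, 15.2, 9.47 and 14 FPKM in LPS cultures and 18.5, 14.3 and 19.1 FPKM in Control cultures. Its groups overlapped (log2 change after LPS -0.41, adjusted p 0.207), and it was called lower with the replicate block (adjusted p 0.0446). With block and median-of-ratios scaling together Psme4 was not called after LPS (adjusted p 0.265) or after LPS with EVs (adjusted p 0.0687).

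Adding EVs to LPS gave no called difference in any of the 39 genes. None was called of 11141 tested genes either (0%, and 0% in each direction; every adjusted p of a proteasome gene was 0.999 by limma). At an unadjusted p under 0.05 there were 0 proteasome genes, against 2.65% of all tested genes, and limma-voom on the recovered reads also called 0. The estimates ran from -0.28 to 0.23 on the log2 scale with a median of 0.04, and the intervals reached at most 0.82 from 0. Differences within these intervals are not excluded, so the result does not show that the genes were alike.

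The genes with the smallest p in their class show the size of what was seen. Psmd4, the ubiquitin receptor, measured 116, 142 and 145 FPKM in LPS+EVs cultures and 109, 127 and 107 FPKM in LPS cultures, with overlap (log2 difference 0.23, 95% interval -0.07 to 0.53, unadjusted p 0.115 by limma). Psma3 differed by -0.20 (interval -0.46 to 0.06), Psma4 by -0.16 (-0.39 to 0.06) and Psmd1 by -0.13 (-0.37 to 0.10). Psmb3 differed by 0.15 (-0.17 to 0.48), Psmb1 by 0.16 (-0.20 to 0.52), Psmc3 by 0.09 (-0.17 to 0.34) and Psmc6 by -0.22 (-0.75 to 0.30). Psma4 and Psmd1 were lower in LPS+EVs with no overlap and no gene was higher with none, against 3.48% lower and 3.14% higher among all tested genes.

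**Figure D4:**
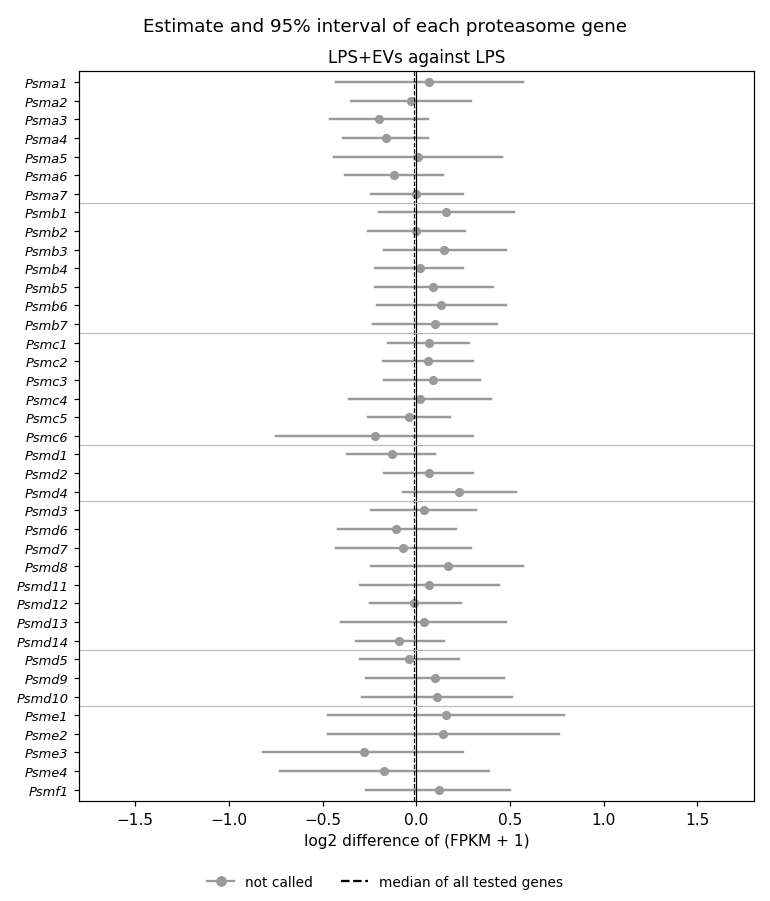
Log2 difference of (FPKM + 1) between LPS+EVs and LPS with its 95% interval for each of the 39 genes, in the order of their classes. Every interval includes 0, and the estimates lie between -0.28 and 0.23.

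Genes that build, feed or control the proteasome were counted beside it. The counts are to be read against the 12.3% higher and 28.7% lower among all tested genes after LPS. These shares were 17% and 20.9% after rescaling, and 17.2% and 35.5% with the replicate block. Of the 5 assembly chaperones of the core that were tested, 3 fell after LPS and none rose. Psmg1 changed by -0.96 (adjusted p 0.009), Psmg2 by -0.73 (adjusted p 0.0226) and Psmg4 by -0.98 (adjusted p 0.00441), all 3 also called under the median-of-ratios scaling. Psmg4 measured 13.3, 19 and 20.2 FPKM in LPS+EVs cultures, 14.6, 16.8 and 17.4 FPKM in LPS cultures and 27.3, 40.9 and 32.2 FPKM in Control cultures, without overlap. Pomp, which matures the core, changed by -0.50 (adjusted p 0.0555, 0.0173 with the replicate block and 0.0108 without LPS culture 2), and Psmg3 by 0.16 (adjusted p 0.777). With block and rescaling together Pomp was not called (adjusted p 0.196). The difference between these chaperones and those of the cap was not tested.

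Of 11 other cap subunits and proteasome-bound factors, 2 rose and 1 fell after LPS. Zfand2a and Zfand5, zinc-finger proteins that bind the proteasome, changed by 1.37 (adjusted p 0.00125) and 0.89 (adjusted p 0.00078), and Sem1, a small lid subunit, by -0.40 (adjusted p 0.019; 0.414 under median-of-ratios scaling). Uchl5, a deubiquitinase of the cap, changed by -0.60 (adjusted p 0.0521, 0.0281 with the replicate block and 0.0493 without LPS culture 2). With block and rescaling together Uchl5 was not called (adjusted p 0.141). With the block this list held 3 higher and 3 lower, Akirin2 being added as higher (adjusted p 0.0459) and Ube3c, a ubiquitin ligase, as lower (adjusted p 0.0135) beside Uchl5. These genes, the markers named above, and those named below as added by a scaling or the block, were chosen after their values were seen.

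Of 6 ubiquitin receptors and shuttles, 2 fell and none rose, Ubqln4 by 0.78 (adjusted p 0.0138) and Rad23b by 0.37 (adjusted p 0.0441, and 0.23 after rescaling). Of 10 tested transcription factors of proteasome genes and proteins that process them, 1 rose and 3 fell, whereas after rescaling 4 were higher and 1 lower. Maff, a small Maf protein, rose by 1.74 (adjusted p 0.00243), and Nfyc, a subunit of NF-Y, Ngly1, which processes Nfe2l1, and Keap1 fell by 0.90, 0.43 and 0.52 (adjusted p 0.0203, 0.0233 and 0.0461). After rescaling Nfyc stayed called (adjusted p 0.0189), Ngly1 and Keap1 did not (adjusted p 0.141 and 0.164), and Nfe2l1, Mafg and Mafk were called higher (adjusted p 0.0131, 0.0204 and 0.019). With the block Nfe2l2, which induces proteasome genes under oxidative stress, was called lower under the deposited scaling (adjusted p 0.0409) and not after rescaling (adjusted p 0.495). Nfe2l1, the factor that induces proteasome genes when proteasome activity is low, measured 51, 48.5 and 60.7 FPKM in LPS+EVs cultures, 49.8, 48.5 and 48 FPKM in LPS cultures and 37.5, 42.8 and 37.2 FPKM in Control cultures. No treated culture overlapped Control, and the change after LPS was 0.31 (adjusted p 0.0574 under the deposited scaling). In LPS+EVs against Control Nfe2l1 was called higher under that scaling (0.43, adjusted p 0.0152). This call was lost without Control culture 1 (adjusted p 0.0557) or 3 (adjusted p 0.0567).

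Of 9 genes of Vcp, the segregase that hands proteins to the proteasome, and its cofactors, 1 rose and 2 fell after LPS, whereas after rescaling 4 were higher and 0 lower. Ubxn4 rose by 0.60 (adjusted p 0.00117), and Vcp and Plaa fell by 0.51 and 0.33 (adjusted p 0.00854 and 0.0424), though neither fall was called under the median-of-ratios scaling (adjusted p 0.193 and 0.502; Vcp 0.0497 with the block as well). The genes higher after rescaling, beside Ubxn4, were Nploc4, Ufd1 and Faf2 (adjusted p 0.00563, 0.00715 and 0.0357). The 10 listed peptidases, which trim the peptides the proteasome releases, are mostly cytosolic and include Erap1 of the endoplasmic reticulum. Of these 10, 6 fell and none rose, whereas after rescaling 5 were lower and 2 higher, Npepps and Dpp3 (adjusted p 0.0118 and 0.0225). Npepps was also called higher with the block under the deposited scaling (adjusted p 0.0256). Thop1 fell by 2.09 (adjusted p 0.000711), Lap3 by 1.54 (adjusted p 0.00602), Blmh by 1.20 (adjusted p 4.54e-05) and Nln by 1.04 (adjusted p 0.000373). Blmh measured 24.2, 23 and 22.7 FPKM in LPS+EVs cultures, 24.3, 22.2 and 23 FPKM in LPS cultures and 56.3, 56 and 50.9 FPKM in Control cultures, far apart. Of the genes named from these lists, Psmg2, Sem1, Rad23b, Nfyc, Ngly1, Keap1 and Plaa each lost their call without at least 1 culture (adjusted p 0.0514 to 0.147). No gene of these lists was called in LPS+EVs against LPS.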

How the data were processed

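RNA sequencing of 9 cultures (3 each of LPS+EVs, LPS and Control) was deposited by the authors as FPKM for 20442 genes in 9 libraries. Per the submitters' processing notes, the tools were fastp, HISAT2, HTSeq and R 3.2.0 and the genome build was mRatBN7.2. Settings and strandedness are not given in the sources used here, so reads of overlapping or antisense genes may be mixed. Whole reads were recovered from the steps in FPKM (tolerance 0.002 reads) for 18833 of 18833 genes seen in at least 2 libraries. Groups and replicate numbers come from the labels, in which the group called LPS+EVs here is named EVs.

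The 11141 genes that reached 1 FPKM in 3 libraries or more were tested with limma 3.58.1 in R 4.3.3 (limma-trend on log2(FPKM + 1), all 9 libraries, 1 mean per group, two-sided p adjusted by Benjamini-Hochberg within each comparison, threshold 0.05). Adding 1 understates the change of low genes. The script was tested on simulated data. After removal of group means, libraries with the same number correlated at 0.28 to 0.86 and those with different numbers at -0.74 to 0.43. These ranges overlap and the labels state no pairing, so a pairing of the cultures is not established. The main fit has no block. The replicate number as a block is an alternative, given beside proteasome genes, lists and named genes whose call it changes.

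The proteasome genes, the other lists, the markers and the tests were chosen with earlier results of these data known. The genes given with all values are the catalytic genes, the activators and inhibitor, in each class of core and cap genes the 2 largest called rises and falls after LPS and the 2 smallest p-values between LPS+EVs and LPS, and, of the other lists, fixed genes and up to 4 with the smallest adjusted p. Psmd10, Psmd11, Psma7 and Psmd7 were added because they were called. One further gene list is not reported here. Alternatives were median-of-ratios scaling, no filter, 5 FPKM in 3 libraries, 0.1 added before the log, the 6 compared libraries, the replicate block with and without rescaling, libraries numbered 1 and 3 alone and leaving out each library. limma-voom on the recovered reads was chosen after seeing the data. Promoter windows are those of RefSeq on GRCr8. Tables and figures were made with matplotlib 3.10.9, numpy 2.4.6 and pandas 2.3.3 in Python 3.11.15.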

Additional observations from a re-analysis of the deposited data

How the results depend on the processing

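In LPS against Control the 6 genes higher and 10 lower stayed at 6 and 10 with limma-voom, with 0.1 added and with the stricter filter, and were 5 and 10 without a filter and 5 and 9 with the 6 compared libraries. Median-of-ratios scaling gave 3 lower, and the replicate block with that scaling 6 lower. Libraries numbered 1 and 3 alone gave 2 higher and 10 lower, against 1766 and 3211 of 11141 tested genes. Leaving out 1 library gave 2 to 6 higher and 6 to 10 lower: 3 higher without Control replicate 2 or 3 or LPS replicate 2, 2 without LPS replicate 1, and 6 lower without Control replicate 1. Psmb5, Psmc3, Psmd5 and Psmf1, 4 of the 16, were called in every setting run. In LPS+EVs against Control, where 5 were higher and 12 lower, median-of-ratios scaling gave 3 lower and the replicate block with that scaling 10 higher and 8 lower, and leaving out 1 library gave 4 to 6 higher and 8 to 11 lower. There, 7 of 17 genes were called in every setting. The replicate block alone gave 7 and 13 after LPS and 6 and 13 after LPS with EVs, and under the deposited scaling changed the call of no proteasome gene other than Psmd7, Psme1, Psme2 and Psme4. In LPS+EVs against LPS every setting called 0 genes; libraries numbered 1 and 3 alone gave 1 proteasome gene and 1556 of all tested genes at an unadjusted p under 0.05, and the block 0 and 600. Median-of-ratios scaling raised the number of proteasome genes above 0 to 23, against 13, after LPS and to 24, against 15, after LPS with EVs; none of those that changed sign was called under either scaling. In LPS+EVs against Control, median-of-ratios scaling, with or without the block, gave 0.06 for Psmb7 and 0.08 for Psme1, and leaving out a library gave Psme1 -0.33 to 0.05. After LPS, leaving out a library gave Psmb6 -0.07 to 0.16 and Psmg3 -0.12 to 0.61. The rescaling moves every gene of a comparison by nearly the same amount, and that shift by itself lowers the count of falls. Over the core genes in LPS against Control it also moved the range of standard errors up, which further lowers their calls. That range was 0.10 to 0.22 under the deposited scaling and 0.13 to 0.29 after rescaling. The adjusted p of Psme3 by limma did not rise, at 0.0135 under the deposited scaling and 0.0109 after rescaling. With 3 cultures a group, spread between cultures and not read depth (at least 572 reads in each tested proteasome gene) limits the precision.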
